A study of Mus musculus with 6 samples.

Results

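The 10 genes described here encode the B cell receptor's signalling chains and surface or signalling proteins of mature, follicular B cells. They were chosen by gene symbol, and every probe of each was taken on every array. They had 21 probes among the 25697 of the array, which cover 16593 genes. The array annotation lists one of them, Faim3, under its current symbol Fcmr. The RNA was total RNA of ankle synovium from DBA/1 mice, all male and 6 to 8 weeks old at the start, in which arthritis is induced by immunity to collagen. Each animal received 100 µg of bovine type II collagen with complete adjuvant and, 2 weeks later, collagen with incomplete adjuvant through a footpad. Tissue was taken 6, 9 or 15 weeks after immunization, named by the series as induction, peak and resolution. Each week has 2 arrays, 6 in all, the tissue was pooled over animals without the boosted hind foot, and the mean RNA integrity number was 9.5. Every group therefore carries the same treatment, and no mice without immunization were analysed here. Whether the paired arrays come from separate pools is not stated, and the p-values therefore cover array-to-array spread alone, which may be technical.

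B cells carry an antigen receptor made of membrane immunoglobulin and a dimer of CD79A and CD79B, whose cytoplasmic tails recruit Src family kinases and Syk when antigen binds. Coreceptors such as the complement receptor CR2 lower the threshold for this signal, while inhibitory receptors such as CD22 raise it by recruiting phosphatases. Follicular B cells are the recirculating mature cells that gather in the follicles of lymphoid tissue around follicular dendritic cells, and aggregates of B cells are also known from arthritic synovium. In bulk tissue, fewer cells of a type and less RNA per cell cannot be told apart.

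Signals are log2 intensities after background correction, an added offset of 16 and quantile normalization, so a log2 difference of 1 is a doubling on that scale. A probe was detected on an array when under 5% of the array's background rows were as bright. The second week 15 array was the dimmest, with a median intensity of 99.07 and a background mean of 86.88, and the other 5 had medians of 123.1 to 129.5 and background means of 106.8 to 111.2. On the 6 arrays 47.88% to 50.73% of probes were detected. Pearson's r across genes was 0.991 between both arrays at week 6 and at week 9 and 0.975 at week 15. The second week 15 array had the lowest r with the arrays of weeks 6 and 9, at 0.964 to 0.970, while the first had 0.978 to 0.984 with them, more than with its own replicate. Of the 8 skeletal muscle genes on the array, 3 were tested and Myh1 was not above background. The log2 of this list's summed signal was 12.84 on the first week 15 array and 7.77 on the second, against 8.16 on both week 6 arrays and 8.20 and 8.11 at week 9. Among 11 synovial fibroblast genes with a probe, 6 were detected throughout, Dcn included. Clic5, a gene of the synovial lining, was not above background, and Prg4 has no probe named here.

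All 10 B cell genes were detected on all 6 arrays by at least 1 probe, and 19 of the 21 probes were detected on all 6. The brightest probe stood for its gene. None of the 10 genes passed the test between any weeks. In week 9 against week 6, 0 of 10 passed the threshold of an adjusted p of 0.05 in limma, where 0.354% of 10167 features did. In week 15 against week 9, 0 of 10 passed, against 1.19% of all features, and in week 15 against week 6, 0 of 10 passed, against 0.0492%. The moderated F test over the 3 weeks called 0 of 10, against 0.620% of all features. Few features passed in any comparison, so the counts of 0 lie near the background. At an unadjusted limma p under 0.05, 1 of the 10 was lower and 0 were higher in week 9 against week 6, where 8.59% of all features were lower and 7.43% higher. The counts were 0 lower and 0 higher in week 15 against week 9, beside 12.9% and 10.3% of all features. They were 1 lower and 0 higher in week 15 against week 6, beside 8.52% and 5.90%. The comparisons share arrays and are not independent. Leaving out the first week 15 array gave 2 calls in week 15 against week 9, Cd79a and Ms4a1, and 1 in the F test, while that fit called 20.2% of all features in week 15 against week 9.

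**Figure D1:**
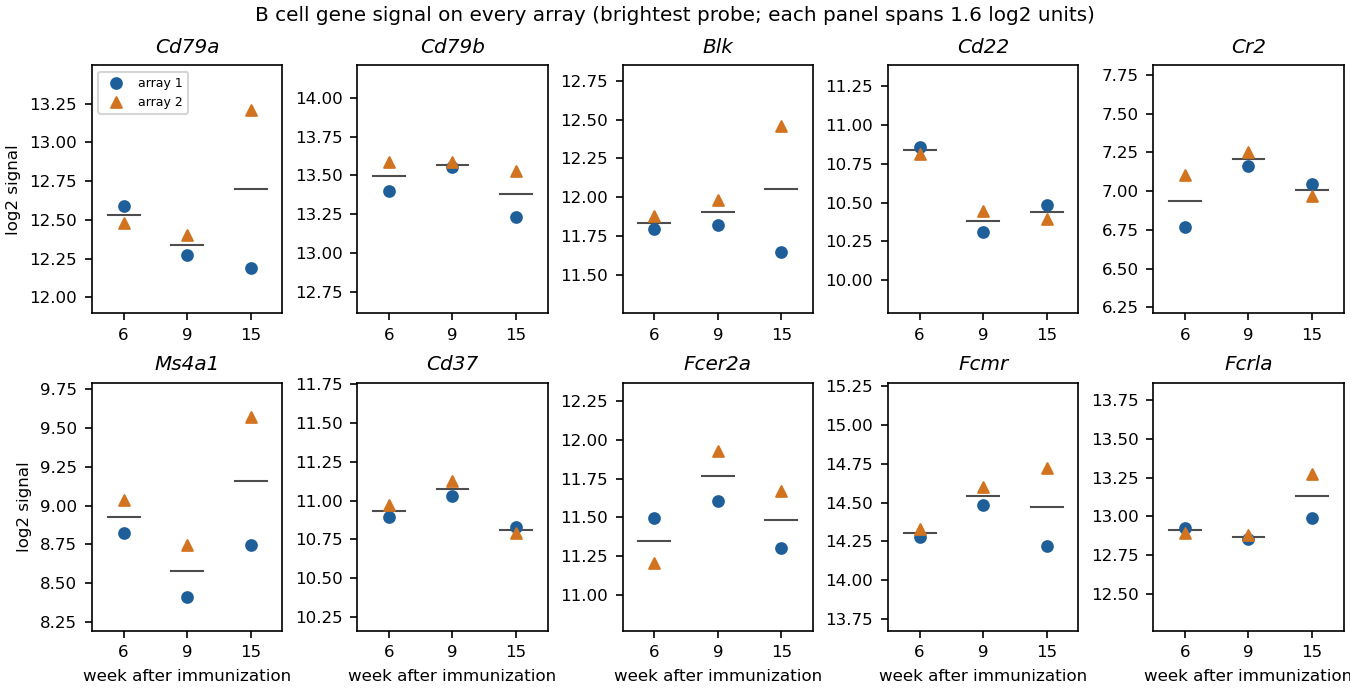
Log2 signal of the brightest probe of each of the 10 B cell genes at week 6, 9 and 15, with circles for the first array, triangles for the second and a bar at the mean of each week. Both arrays of week 15 lie farther apart than those of week 6 and week 9 for Cd79a, Cd79b, Blk, Ms4a1, Fcer2a, Fcmr and Fcrla.

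Cd79a encodes the CD79A chain of the receptor, which carries an activation motif in its tail. Cd79a had log2 signals of 12.59 and 12.48 at week 6, 12.27 and 12.40 at week 9, and 12.19 and 13.21 at week 15. The week 15 arrays held both the lowest and the highest of the 6 values, so week 15 overlapped both other weeks. The mean was 12.70 ± 0.72 at week 15 (SD, n = 2), with a log2 difference of 0.36 from week 9 (95% interval -0.38 to 1.10, limma adjusted p = 0.502). In week 9 against week 6 the difference was -0.20 (interval -0.94 to 0.55, adjusted p = 0.797). Without the first week 15 array the week 15 against week 9 difference was 0.86 (limma adjusted p = 0.0291), and without the second it was -0.15.

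Cd79b encodes the partner chain of the dimer. Its brightest probe read 13.40 and 13.59 at week 6, 13.55 and 13.59 at week 9, and 13.23 and 13.53 at week 15. The 6 values lay close together, and week 9 and week 15 did not overlap, with week 15 lower. The log2 difference was -0.19 in week 15 against week 9 (interval -0.61 to 0.23, limma adjusted p = 0.537), 0.08 in week 9 against week 6 and -0.11 in week 15 against week 6. Its second probe read 12.97 and 13.11, 12.98 and 13.36, and 12.81 and 13.14 at weeks 6, 9 and 15, and differences of -0.19, 0.13 and -0.06 in the same order.

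Blk encodes a Src family kinase of B cells that phosphorylates these chains. It had log2 signals of 11.80 and 11.88 at week 6, 11.82 and 11.98 at week 9, and 11.65 and 12.46 at week 15. Here too the week 15 arrays held the lowest and the highest value. The differences were 0.07 in week 9 against week 6 (interval -0.57 to 0.70) and 0.15 in week 15 against week 9 (interval -0.49 to 0.78), with limma adjusted p of 0.932 and 0.755. The second probe read 11.38 and 10.94 at week 6, 11.65 and 11.51 at week 9, and 11.17 and 11.25 at week 15. On that probe week 9 lay above both other weeks without overlap between week 9 and either, at 0.42 over week 6 (limma adjusted p = 0.355 over all detected probes). The third and dimmest probe had differences of -0.17 and -0.06, and none of the 3 probes passed.

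Cd22 encodes an inhibitory lectin of the Siglec family that binds sialic acid and recruits the phosphatase encoded by Ptpn6. Its brightest probe had log2 signals of 10.86 and 10.81 at week 6, 10.31 and 10.45 at week 9, and 10.49 and 10.39 at week 15. Both later weeks lay below week 6 with no overlap, and they overlapped each other. The log2 difference was -0.46 in week 9 against week 6 (SE 0.16, interval -0.83 to -0.08) with an unadjusted p of 0.0233 and a limma adjusted p = 0.249. In week 15 against week 6 it was -0.40 (SE 0.16, interval -0.77 to -0.02), with an unadjusted p of 0.0402 and a limma adjusted p = 0.326. Cd22 was the member behind both counts of 1 at the unadjusted threshold.

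The other 2 probes of Cd22 gave other patterns. The second read 9.70 and 10.23 at week 6, 9.80 and 9.74 at week 9, and 9.48 and 10.14 at week 15, with all weeks overlapping and a difference of -0.20 in week 9 against week 6. The third, a dim probe detected on 4 of the 6 arrays, read 6.86 and 6.66 at week 6, 4.98 and 4.48 at week 9, and 6.39 and 7.44 at week 15. It was not above background on either week 9 array and lay lower there than on all 4 other arrays. Among the 10 other tested probes of the members, it was the 1 that passed in week 15 against week 9 in the fit of all 13633 detected probes, where 2.40% of probes did. On the scale with the offset of 16 it was at least 3.50-fold higher at week 15 than at week 9 (limma adjusted p = 0.032). On that scale it was at least 3.14-fold lower at week 9 than at week 6 (limma adjusted p = 0.0681). In week 9 against week 6, 0 of the 10 other probes passed, against 0.521% of all probes, and in week 15 against week 6, 0 of 10 passed, against 0.0367%. The bounds compare the mean of the brighter week with, per array of week 9, the higher of the probe's own signal and the lowest signal among detected probes. Both week 9 arrays lie at background on this probe. The bounds hold only on the scale with the offset of 16, since the fitted log2 change was smaller in size in the following alternatives. In week 9 against week 6 it was -0.85 with no background correction, -1.10 with the offset of 50 and -0.61 with the authors' processed values. It was not smaller in that comparison with scaling to the 75th percentile, at -2.16 (limma adjusted p = 0.0305). With only the arrays of both weeks it was -2.03 (limma adjusted p = 0.0257), and with the replicate block the limma adjusted p was 0.103. In week 15 against week 9 it was 0.96 with no background correction (limma adjusted p = 0.0348), 1.22 with another correction and an offset of 50 (limma adjusted p = 0.0238) and 0.69 with the authors' processed values (limma adjusted p = 0.0541). The adjusted p was above the threshold without either week 6 array, either week 9 array or the second week 15 array, from 0.0611 to 0.241. With scaling to the 75th percentile the third probe's change in week 15 against week 9 was 2.33 (limma adjusted p = 0.015). With only the arrays of both weeks it was 2.19 (limma adjusted p = 0.0806). On the brightest probe the change in week 15 against week 9 was 0.06.

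**Figure D2:**
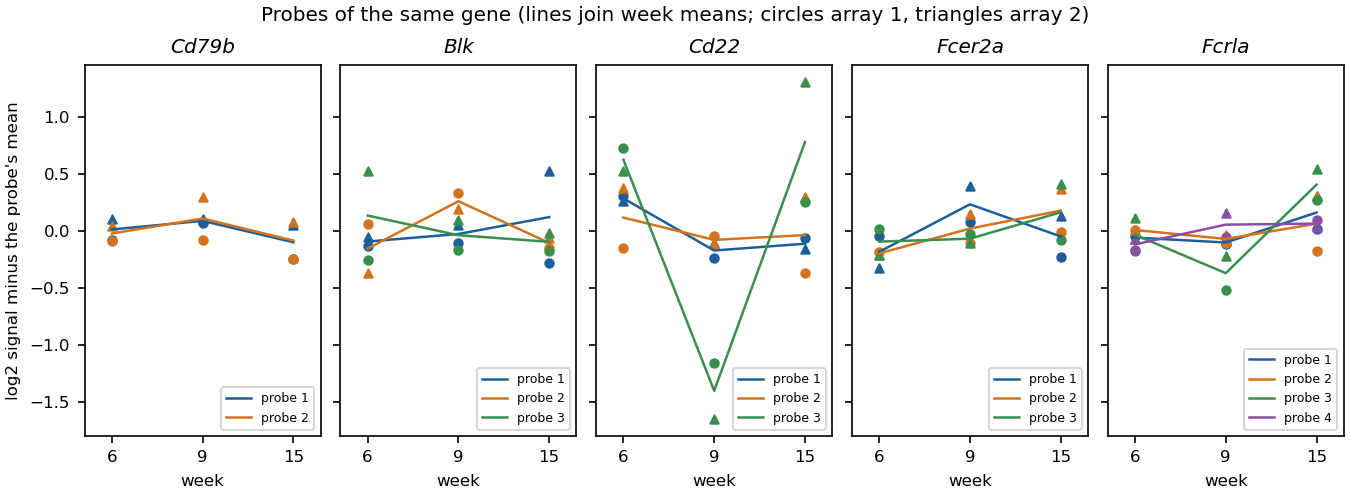
Log2 signal minus the probe's own mean over the weeks, for every tested probe of the genes with several tested probes, at week 6, 9 and 15. Circles are first arrays, triangles second arrays, and lines join the means of the weeks. The third Cd22 probe has its lowest values at week 9, 4.98 and 4.48 on the log2 scale before centring, and every other probe stays within a narrower range.

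The coreceptor gene Cr2, whose mouse transcripts encode the complement receptors CD21 and CD35 of B cells and follicular dendritic cells, had log2 signals of 6.77 and 7.11 at week 6, 7.16 and 7.25 at week 9, and 7.05 and 6.97 at week 15. Week 9 lay above both other weeks without overlap. The differences were 0.27 in week 9 against week 6 (interval -0.15 to 0.69) and -0.20 in week 15 against week 9 (interval -0.62 to 0.22), with limma adjusted p of 0.494 and 0.512. A second Cr2 probe was not above background on any of the 6 arrays and was not tested.

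Ms4a1 encodes CD20, the membrane protein targeted by B cell depleting antibodies. It had log2 signals of 8.82 and 9.04 at week 6, 8.41 and 8.75 at week 9, and 8.74 and 9.58 at week 15. Week 9 lay below week 6 without overlap, and the 2 arrays of week 15 spanned the week 6 values. The difference of 0.58 in week 15 against week 9 was the largest among the 10 genes in any comparison (SE 0.29, interval -0.10 to 1.26, limma adjusted p = 0.267), and the one in week 9 against week 6 was -0.35 (adjusted p = 0.584). Without the first week 15 array the week 15 against week 9 difference was 0.99 (limma adjusted p = 0.0338), and without the second it was 0.17.

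Cd37, which encodes a tetraspanin of mature B cells and some other leukocytes, had the narrowest error. It read 10.89 and 10.97 at week 6, 11.03 and 11.13 at week 9, and 10.83 and 10.79 at week 15, so no 2 weeks overlapped and the order was week 9, week 6, week 15 from high to low. The steps were small, at 0.14 in week 9 against week 6 and -0.27 in week 15 against week 9, with a standard error of 0.16 and limma adjusted p of 0.683 and 0.331. The intervals of both steps held 0.

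Among the Fc receptor genes, Fcer2a encodes the low-affinity receptor for immunoglobulin E, CD23, a marker of follicular B cells. Its brightest probe had log2 signals of 11.49 and 11.21 at week 6, 11.61 and 11.93 at week 9, and 11.30 and 11.67 at week 15. Week 9 lay above week 6, and week 15 overlapped both. The difference in week 9 against week 6 was 0.42 (interval -0.09 to 0.92, limma adjusted p = 0.387), and it was 0.22 and 0.03 on the other 2 probes. In week 15 against week 9 the brightest probe gave -0.28 and the others 0.16 and 0.23, so the direction depended on the probe.

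Fcmr, the Faim3 of older annotations, encodes the receptor for the Fc part of immunoglobulin M. It had log2 signals of 14.28 and 14.33 at week 6, 14.48 and 14.60 at week 9, and 14.22 and 14.72 at week 15. Week 9 lay above week 6, while the week 15 arrays held the lowest and the highest value. The differences were 0.24 in week 9 against week 6 (interval -0.25 to 0.72) and -0.07 in week 15 against week 9 (interval -0.55 to 0.42), with limma adjusted p of 0.602 and 0.852.

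Fcrla encodes an intracellular Fc receptor-like protein of B cells and had 4 probes, all detected on all 6 arrays. The brightest read 12.92 and 12.89 at week 6, 12.85 and 12.88 at week 9, and 12.99 and 13.27 at week 15. Week 15 lay above both other weeks, by 0.26 over week 9 (interval -0.14 to 0.67, limma adjusted p = 0.373) and by 0.22 over week 6 (adjusted p = 0.575). The third probe read 11.22 and 11.51 at week 6, 10.88 and 11.18 at week 9, and 11.67 and 11.94 at week 15, with a difference of 0.78 in week 15 against week 9 (limma adjusted p = 0.0928 over all detected probes). The other 2 probes gave 0.13 and 0.01. In that comparison the third probe passed with no background correction, with the offset of 50 and with the authors' values (limma adjusted p = 0.0382, 0.0391 and 0.043). It did not pass with scaling to the 75th percentile (limma adjusted p = 0.104), no filter on dim probes (0.105) or detection on all 6 arrays (0.0679). Nor did it pass with only the arrays compared (limma adjusted p = 0.168) or with the replicate block (0.0834). Over the arrays left out in turn its difference ran from 0.63 to 0.92. It was 0.91 without the first week 15 array and 0.64 without the second.

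As a group the 10 genes had a median log2 difference of 0.07 in week 9 against week 6, beside 0.04 over all 10167 features, with 6 genes above 0 and 4 below. In week 15 against week 9 the median was -0.005, beside -0.08 over all features, with 5 above and 5 below. It was 0.15 in week 15 against week 6, beside -0.02, with 7 above and 3 below. Over the arrays left out in turn, the median ran from 0.0029 to 0.14 in week 9 against week 6, where scaling to the 75th percentile gave 0.22. It ran, in week 15 against week 9, from -0.21 without the second week 15 array to 0.09 without the first. The median of the sizes was 0.22, 0.23 and 0.17 in the order of the 3 comparisons above, beside 0.23, 0.29 and 0.22 over all features. Arrays of both weeks did not overlap for 8 of the 10 in week 9 against week 6, 4 of them higher and 4 lower at week 9, where 58.2% of all features did not overlap. The count was 4 in week 15 against week 9, beside 54.9%, and 3 in week 15 against week 6, beside 44.0%. The lowest lower and highest upper limits of the 95% intervals of the 10 genes were -1.03 and 0.92 in week 9 against week 6, -0.79 and 1.26 in week 15 against week 9, and -0.77 and 0.91 in week 15 against week 6.

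**Figure D3:**
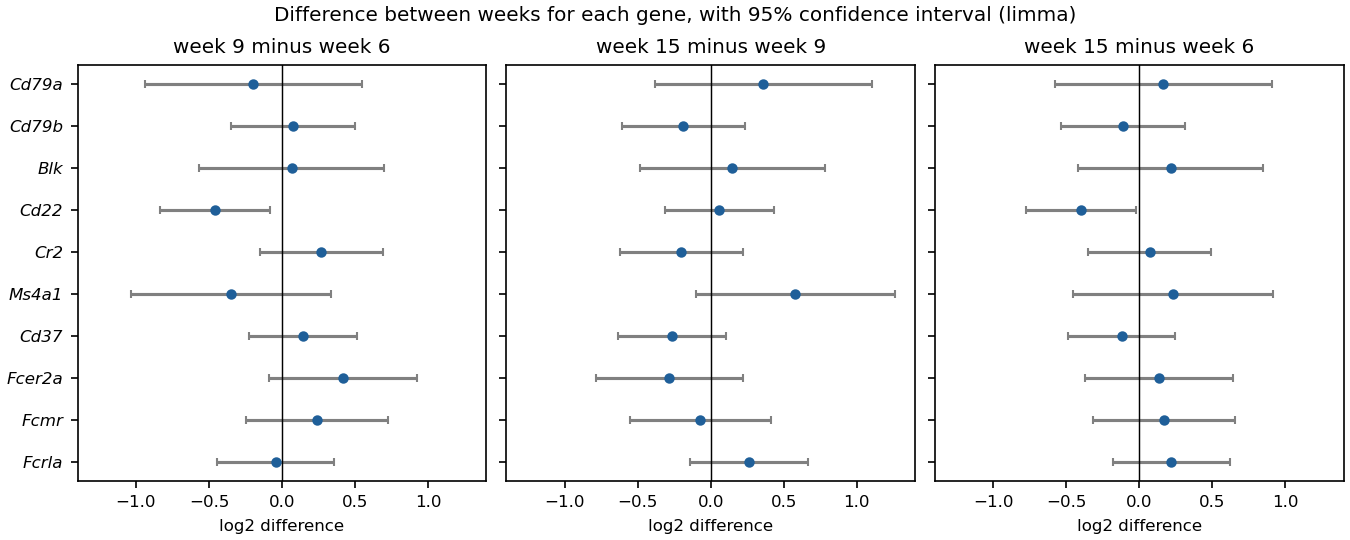
Log2 difference of each of the 10 B cell genes in week 9 minus week 6, week 15 minus week 9 and week 15 minus week 6, as points with 95% limma intervals. Every interval crosses 0 except those of Cd22 in week 9 minus week 6, -0.83 to -0.08, and week 15 minus week 6, -0.77 to -0.02, neither adjusted for multiple testing.

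The largest spread lay within week 15. On the second week 15 array 7 of the 10 genes were higher than on the first, with a median log2 difference of 0.33, while the median over all features was -0.04 and 46.6% of features were higher. Cd79a differed by 1.02 between these arrays, Ms4a1 by 0.83, Blk by 0.81 and Fcmr by 0.50. Cd22 at -0.10, Cr2 at -0.08 and Cd37 at -0.04 did not share this difference. At week 9 all 10 genes were higher on the second array by 0.03 to 0.34, where 51.2% of all features were higher. At week 6 the differences ran from -0.28 to 0.34 with 6 of the 10 higher, beside 48.0% of all features. The summed signal of the muscle list given above moved the opposite way within week 15, with 3 of its genes tested and 1 detected on all 6 arrays. The log2 of the summed signal of 10 lymph node stroma and venule genes was 12.62 on the first and 11.41 on the second week 15 array, that of 9 follicular dendritic genes 13.75 and 12.97, and that of 13 T cell genes 15.28 and 15.26. The part of these tissues in the B cell signals was not tested. The direction of the members' median in week 15 against week 6 rested on the second week 15 array, without which it was -0.14, and it was 0.33 without the first.

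**Figure D4:**
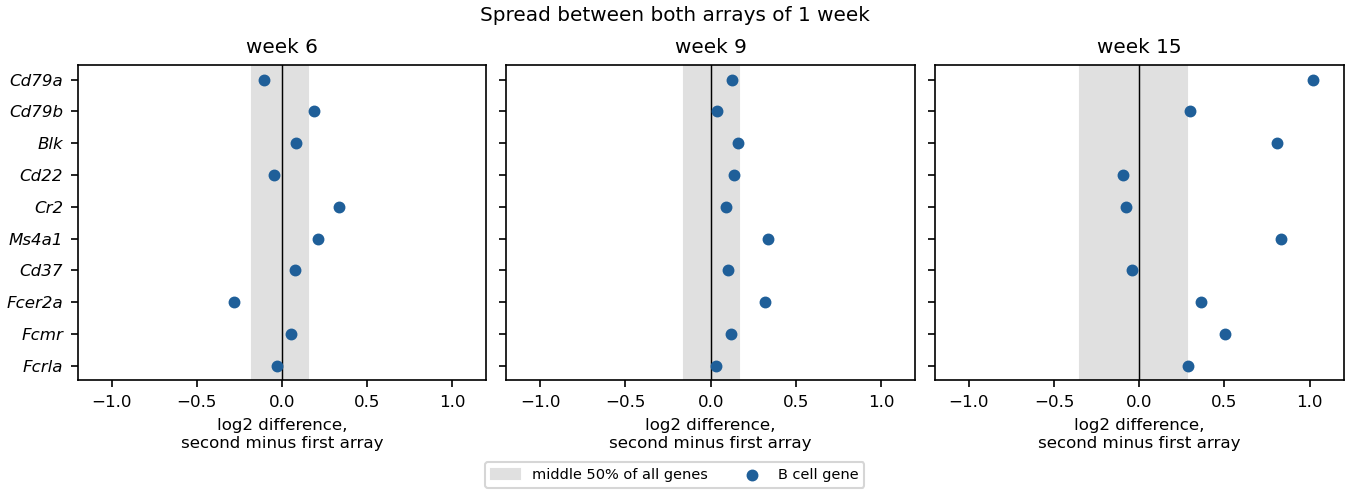
Log2 difference of the second minus the first array of week 6, 9 and 15 for each of the 10 B cell genes, with a grey band for the middle 50% of all tested features. At week 15, 7 genes lie to the right of the band, with Cd79a at 1.02, Ms4a1 at 0.83 and Blk at 0.81.

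The mean profile of the 10 genes over the 6 arrays, each gene centred on its own mean, stayed between -0.16 on the first and 0.23 on the second week 15 array. The genes lay at a root mean square distance of 0.10 for Fcmr to 0.27 for Ms4a1 from it. The 6 other genes closest to this profile were Sdc4, Sesn2, Hspa9, Arl3, Prkcb and Txnrd3, at distances of 0.03 to 0.05 over 6 arrays, where the median feature stood at 0.27. Prkcb encodes a protein kinase C that acts after the B cell receptor.

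No gene passed in the wider receptor pathway. Over all features, 0.354% passed in week 9 against week 6 and 1.19% in week 15 against week 9. In week 15 against week 6, 0.0492% passed. Counts of 0 in this and the following lists lie near these shares, so they cannot show that a list was unchanged. Of 20 genes of receptor signalling listed, 16 had a named probe, all 16 were detected on all 6 arrays, and 0 passed in any of the 3 comparisons. Their median log2 difference was 0.13 in week 9 against week 6, -0.06 in week 15 against week 9 and 0.08 in week 15 against week 6. At an unadjusted limma p under 0.05, the 16 held 4 in week 9 against week 6, beside 8.59% of all features lower and 7.43% higher. They held 4 in week 15 against week 9, beside 12.9% and 10.3%, and 0 in week 15 against week 6, beside 8.52% and 5.90%. The 3 genes with the smallest p in the F test included Plcg2, the phospholipase downstream of Btk, with a difference of -0.68 in week 15 against week 9, and Vav1, an exchange factor, with -0.71 (limma adjusted p of 0.0991 and 0.101). The third, Ptprc, encodes the phosphatase CD45 of all leukocytes and had one of 1.28 (limma adjusted p = 0.0822). Of 11 listed inhibitors of the receptor, 7 were tested and 0 passed. Among them Ptpn22, a phosphatase, had a difference of 0.94 in week 15 against week 9 (limma adjusted p = 0.0923), Cd5 one of -0.50 and Fcrl5 one of 0.15. Lair1 was not above background.

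Follicle homing and survival genes had 11 tested members, of which 0 passed. Cxcl13, the chemokine that draws B cells to follicles, had mean log2 signals of 10.68 ± 0.18 at week 6, 9.49 ± 0.07 at week 9 and 10.25 ± 0.10 at week 15 (SD, n = 2). Its difference was -1.19 in week 9 against week 6 (limma adjusted p = 0.052) and 0.76 in week 15 against week 9 (adjusted p = 0.0908). Tnfrsf13b, a receptor for the B cell survival factors BAFF and APRIL, had differences of -0.87 and 0.95 (adjusted p = 0.102 and 0.056 in limma), and Cxcr4 had -0.25 and 0.93 (adjusted p = 0.56 and 0.0766 in limma). Among 13 tested genes of other mature B cell proteins 0 passed, with Ly6d at -0.73 and Cd86 at -0.21 in week 15 against week 9. The unadjusted limma p in week 15 against week 6 was under 0.05 for 3 of 11 homing and survival genes. It was so for 2 of 13 other mature B cell genes and 2 of 7 inhibitors, beside 8.52% of all features lower and 5.90% higher. Some genes stand in more than 1 list, so the lists are not independent.

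Genes of neighbouring B cell stages were also examined. The listed immunoglobulin heavy and light chain genes have no probe named here, so the receptor's membrane immunoglobulin was not analysed here. Of the 9 tested genes of the immunoglobulin and plasma cell list, among them Jchain for the joining chain, 0 passed, with a median of -0.56 in week 15 against week 6 and 7 of 9 below 0. Tnfrsf17, the plasma cell receptor BCMA, had a difference of -1.27 (limma adjusted p = 0.21), Fkbp11 one of -0.80 and Txndc5 one of -0.57, and Prdm1 was not above background. Of 5 tested germinal centre genes 0 passed, and in week 15 against week 6 S1pr2 had a difference of -0.52, Gcsam one of -0.23 and Fas one of -0.17. Among 8 B cell precursor genes with a probe, 3 were detected throughout, and Vpreb2, Rag2 and Dntt were not above background. Vpreb3, a chaperone of the precursor receptor, had a difference of -0.81 in week 15 against week 9 (limma adjusted p = 0.0966), and Cd93 one of -0.20. Vpreb1, part of the surrogate light chain, was detected on 3 arrays, on neither at week 15. On the scale with the offset of 16 it was at least 1.32-fold lower at week 15 than at week 6 (limma adjusted p = 0.21). The unadjusted limma p in week 15 against week 6 was under 0.05 for 4 of 9 plasma cell, 1 of 5 germinal centre and 3 of 5 precursor genes. Over all features, 8.52% were lower and 5.90% higher at that threshold.

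**Figure D5:**
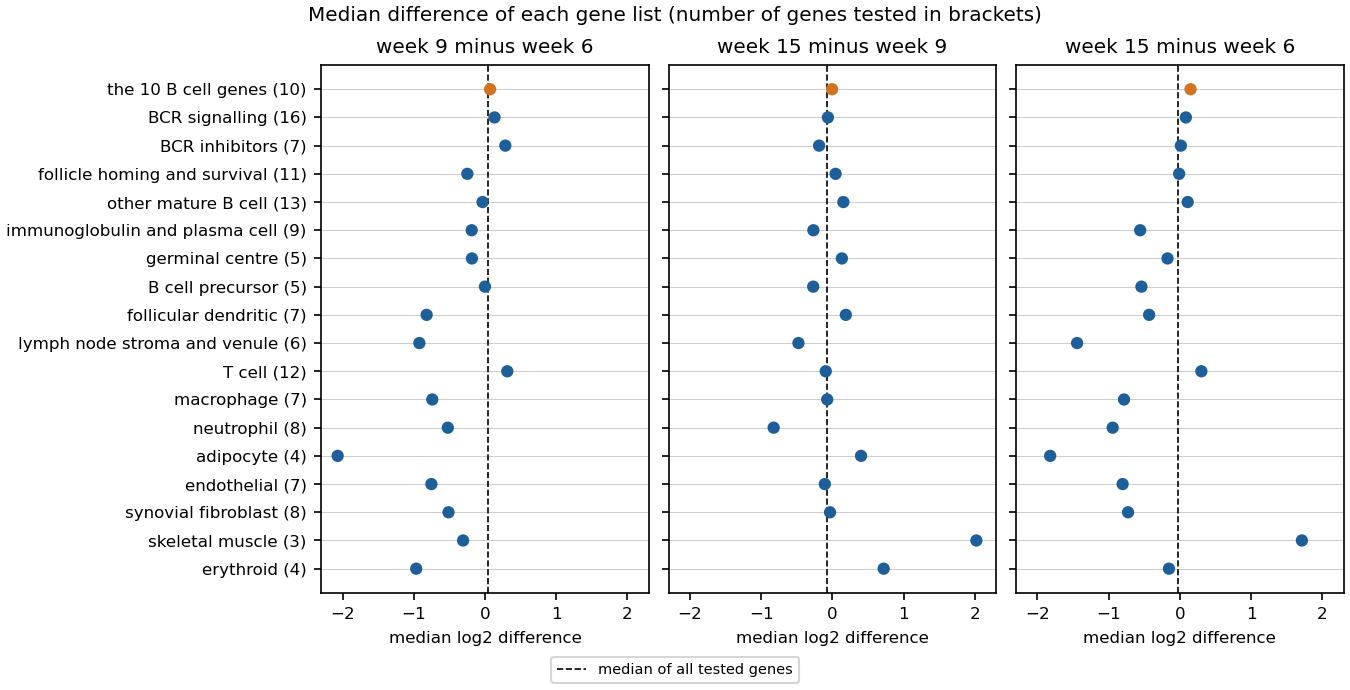
Median log2 difference of each gene list in week 9 minus week 6, week 15 minus week 9 and week 15 minus week 6, with the 10 B cell genes in orange, the other lists in blue and a dashed line at the median of all tested features. The B cell genes lie at 0.07, -0.005 and 0.15, and lymph node stroma and venule genes at -0.92, -0.48 and -1.44.

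Markers of the niche and of other cells gave medians farther from 0 in week 9 against week 6. The 7 tested follicular dendritic genes were all below 0 in week 9 against week 6, with a median of -0.82. Vcam1, an adhesion molecule of these cells and of vessels, fell by 1.47 on the log2 scale (limma adjusted p = 0.0483), and Mfge8 stood at -0.82 without passing. All 6 tested lymph node stroma and venule genes were below 0 in that comparison, at a median of -0.92, and 0 of 6 passed, with Glycam1, a ligand of L-selectin on high endothelial venules, at -1.64 and Ccl21b at -0.91. The stroma and venule median was -1.44 in week 15 against week 6, with all 6 below 0 and 0 passing. All 6 had an unadjusted limma p under 0.05 in that comparison, beside 8.52% of all features lower and 5.90% higher. The same held for 4 of 7 follicular dendritic and 1 of 12 T cell genes. In week 9 against week 6, the 12 tested T cell genes had a median of 0.31, and 0 passed, with Cd3e at 0.73 and Cd3g at 0.51. Medians of the other lists in week 9 against week 6 were -0.74 for 7 macrophage, -0.52 for 8 neutrophil, -2.07 for 4 adipocyte, -0.75 for 7 endothelial, -0.51 for 8 synovial fibroblast, -0.31 for 3 skeletal muscle and -0.97 for 4 erythroid genes. In week 15 against week 6 their counts at an unadjusted limma p under 0.05 were, in the same order, 5, 7, 3, 5, 5, 0 and 0. In these 7 lists Adipoq, a fat cell hormone gene, passed as lower in week 9 against week 6 (-2.72, limma adjusted p = 0.0262), Hbb-b2, a globin gene, as higher in week 15 against week 9 (1.33, limma adjusted p = 0.0292), and no other gene passed in any comparison.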

How the data were processed

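Synovial RNA of 3 weeks after immunization was measured on Illumina bead arrays, 2 per week. The deposited signal table holds linear intensities per probe, per the file headers. The authors' processed log2 values, with a median of 6.732 to 6.734 per array and a scaling not named in the labels, served as an alternative. In the signal table, 2 columns of per-sample values match no sample here and were not used. Of 26821 rows, 1124 have no probe ID. Of these, 13 bright ones, more than 5 median absolute deviations above the median on the log2 scale, were left out, and 1111 served as background rows.

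Intensities were corrected with the normal-exponential model (offset 16), quantile-normalized and log2-transformed (neqc, limma 3.58.1, R 4.3.3). Probes with a detection p under 0.05 on at least 2 arrays were tested, 13633 in all. The brightest probe per gene gave 10167 features, of which 9360 have a symbol. Other probes of a gene were tested in a fit of all detected probes. One limma model (lmFit, eBayes) of the 6 arrays had 3 residual and 4.02 prior degrees of freedom. P-values are two-sided, with Benjamini-Hochberg adjustment over all features and a threshold of 0.05. The number of arrays limits the precision. The fit was tested on simulated data.

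The 10 genes and the 17 other gene lists were chosen with earlier results of these data known. Named genes are all members with every probe, the 3 genes with the smallest F test p of each list, the 6 genes closest to the members' profile, and markers not above background. Of the lists of other cells, 1 to 2 genes and any gene that passed are given, and Prg4, without a probe, was named afterwards. Alternatives were other background corrections and scalings, other filters, all probes, only the arrays compared, a replicate block and each array left out. Symbols come from the array annotation, and 23962 of 23978 named probes were found in RefSeq by gene ID.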

Additional observations from a re-analysis of the deposited data

How the results depend on the processing

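Over 15 alternatives, 430 of 450 differences of single members kept their direction and their side of the threshold, 18 changed direction without passing and 2 passed, Cd79a and Ms4a1 without the first week 15 array. The counts of members called stayed at 0 in every alternative, except that leaving out single arrays gave 0 to 2 in week 15 against week 9 and 0 to 1 in the F test. A left-out array leaves 1 array in its week, which is assumed to vary like the others. The other filters, all probes, only the arrays compared and the replicate block give every member the same difference as the main fit. Those alternatives could alter only the adjusted p, so part of the 430 could not have changed direction. The members' median in week 15 against week 6 ran from -0.1445 to 0.3318 over the arrays left out. Scaling to the 75th percentile reversed Blk (-0.0062), Cd22 (-0.10) and Fcmr (0.02256) in week 15 against week 9 and Fcrla (0.13) in week 9 against week 6. Over the arrays left out, the differences that changed direction in week 15 against week 6 ran from -0.195 to 0.6145 for Blk, -0.3454 to 0.6653 for Cd79a, -0.2639 to 0.03707 for Cd79b, -0.09976 to 0.2404 for Cr2, -0.04649 to 0.3132 for Fcer2a, -0.08202 to 0.4037 for Fcmr and -0.1867 to 0.6428 for Ms4a1. In week 15 against week 9 they ran from -0.2608 to 0.5485 for Blk, -0.008389 to 0.1258 for Cd22, -0.15 to 0.8572 for Cd79a and -0.3143 to 0.1685 for Fcmr, and in week 9 against week 6 from -0.01528 to 0.1498 for Blk and -0.01795 to 0.1669 for Cd79b. Among the other 10 probes, an alternative set added after the data were seen, the count in week 15 against week 9 was 2 with no background correction or with the offset of 50, 0 with a model of just both weeks' arrays and 0 of the 9 probes detected on all 6 arrays, which leaves out the third Cd22 probe. In week 9 against week 6 it was 1 with scaling to the 75th percentile or with that model. Over the arrays left out these counts ran from 0 to 2 and from 0 to 1. The cause was not tested. With the replicate number as a block, 0 members passed in each comparison and 1 other probe in week 15 against week 9, as without it. Deviations of same-numbered arrays correlated at -0.04, 0.15 and -0.08 between weeks. A single pair of arrays per week cannot decide whether same-numbered arrays share more than a number. The block fit called 8 features in week 9 against week 6 and 34 in week 15 against week 9. In week 15 against week 6 it called 4. Without the block the counts were 36, 121 and 5 in that order. In the same order of comparisons, 70, 343 and 29 passed with no background correction, 88, 318 and 44 with the offset of 50, 83, 163 and 10 with scaling to the 75th percentile, 48, 329 and 15 with the authors' values, 71, 327 and 5 among all detected probes, and 171, 3 and 4 with a model of just both weeks' arrays. Leaving out single arrays gave 0 to 168, 0 to 2017 and 3 to 1025.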
